A study of Mus musculus with 4 samples.

Results

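The genes described here are imprinted genes of the mouse, which are transcribed mainly from the copy inherited from the mother or from the copy inherited from the father. They were chosen by symbol from a list of 42 known imprinted genes, of which 35 matched a row among the 22013 rows of the deposited expression table. Of the 35, 12 are classed in textbooks as maternally expressed, 21 as paternally expressed, and 2, Gnas and Ddc, as using different alleles by transcript or tissue. These classes are not specific to blastocysts, and some genes of the first 2 classes, such as Ube3a, are imprinted in some tissues only. Of the 7 symbols with no matching row, 6 are noncoding RNAs (H19, Meg3, Rian, Mirg, Airn and Kcnq1ot1) and 1 is the retrogene Zrsr1, and these were not analysed here. Nearly all rows of the table, 21402 of 22013, match protein-coding genes.

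Imprints are laid down as DNA methylation in the egg or sperm at imprinting control regions, and they are kept through the genome-wide loss of methylation before implantation by ZFP57, TRIM28 and DNMT1. A further small set, which includes Slc38a4, Gab1, Sfmbt2, Jade1 and Smoc1, is silenced on the maternal copy by trimethylation of histone H3 at lysine 27 instead. Many imprinted genes govern fetal and placental growth, and embryo culture and superovulation are known to disturb some imprints. The embryos were of an inbred strain and the table gives the total level of each gene, so the allele behind a transcript was not measured.

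Poly(A) RNA came from 4 pools of 5 blastocysts each, 2 of control and 2 of Ywhaz knockout embryos, all C57BL/6, obtained from superovulated females mated with males of that strain and cultured in vitro. The knockout embryos received CRISPR-Cas9 against Ywhaz, which encodes the adaptor protein 14-3-3 zeta, as zygotes. The sample titles call this group Ywhaz-KO, whereas the headers of its values read si_Ywhaz. The labels describe the control embryos in 3 ways, as given Cas9 protein alone, a control guide RNA, or nothing, and none names separate parents or days for the pools. A p-value here therefore reflects the spread of these pools alone, which may be technical. Values are FPKM, a level scaled to transcript length and sequencing depth. The spacing of low values gave an estimated depth of 17.1 to 18.5, in units of 1e6 fragments, per library. The targeted transcript Ywhaz measured 143 and 123 FPKM in the control pools but 32.7 FPKM in knockout pool 1 and 98.2 FPKM in knockout pool 2, a 3.0-fold gap between knockout pools.

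Markers of the blastocyst lineages were present in every library. The 7 trophectoderm markers summed to 187 to 237 FPKM in control and 225 to 349 FPKM in knockout libraries, the 5 epiblast markers in the table to 189.5 to 200.2 and 292 to 315 FPKM, and the 6 primitive endoderm markers to 407 to 565 and 431 to 642 FPKM. Dab2 alone supplied most of the primitive endoderm sums, with 510 and 363 FPKM in the control pools against 394 and 599 FPKM in the knockout pools. The other 5 of that list had lower knockout means, at 33.0% of control for Sox17, 39.2% for Sparc, 41.8% for Gata4, 71.2% for Pdgfra and 94.4% for Gata6, and of the 5 genes of the list that were tested, all but Gata4, limma called 0, with 2 (Sox17 and Sparc) at an unadjusted p under 0.05. Of the trophectoderm list, knockout means were 163% of control for Tfap2c, 156% for Cdx2, 154% for Krt18, 128% for Gata3 and 116% for Krt8. Eomes stood at 80.2% and Elf5 at 42.7%. All 5 epiblast markers had higher knockout means, from 112% of control for Sox2 to 161% for Pou5f1. Limma called 0 of either list. An unadjusted limma p under 0.05 was found for 3 of the 7 trophectoderm markers, with Krt18 and Tfap2c higher and Elf5 lower in knockout pools. The same held for 2 of the 5 epiblast markers, Pou5f1 and Nanog, both higher. Of all genes tested, 11.1% had an unadjusted limma p under 0.05. The 6 cumulus and granulosa markers summed to at most 0.677 FPKM in any library, with Has2 and Cyp19a1 at 0 in all of them, and the 3 oviduct and uterus markers to at most 0.564 FPKM, with Pgr at 0. The 5 oocyte markers summed to 8.02 to 12.1 FPKM, nearly all of it Zp3, and the 3 blood markers to 3.12 to 11 FPKM, nearly all of it Hba-a1. The part of these cell types in the results was not tested, and in such pooled embryos fewer cells of a type and less RNA per cell cannot be told apart.

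Sequence sets out how some of these loci differ. RefSeq start sites on GRCm38.p6, which is not the authors' build, were found for 29 of the 35 genes, with 50 promoters in all. The 250 bases before the start site are shown for 4 genes that recur below: Mest and Mcts2, whose promoters carry germline methylation imprints, H13, in whose intron Mcts2 lies, and Slc38a4, of the histone-marked set. They lie at chr6:30737800-30738049 (plus strand), chr2:152686898-152687147 (plus), chr2:152669211-152669460 (plus) and chr15:97055957-97056206 (minus), and capitals mark each CG dinucleotide, where DNA methylation is placed.

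Mest: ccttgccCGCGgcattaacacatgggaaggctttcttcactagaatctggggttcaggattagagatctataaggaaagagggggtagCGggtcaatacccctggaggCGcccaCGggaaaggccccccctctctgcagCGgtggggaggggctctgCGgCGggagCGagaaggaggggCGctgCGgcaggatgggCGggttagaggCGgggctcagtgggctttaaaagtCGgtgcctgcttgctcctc
Mcts2: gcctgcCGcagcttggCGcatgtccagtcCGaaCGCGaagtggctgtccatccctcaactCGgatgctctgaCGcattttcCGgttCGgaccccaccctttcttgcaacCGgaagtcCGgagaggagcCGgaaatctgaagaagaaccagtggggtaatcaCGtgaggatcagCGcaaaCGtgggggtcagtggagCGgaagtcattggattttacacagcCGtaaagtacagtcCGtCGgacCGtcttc
H13: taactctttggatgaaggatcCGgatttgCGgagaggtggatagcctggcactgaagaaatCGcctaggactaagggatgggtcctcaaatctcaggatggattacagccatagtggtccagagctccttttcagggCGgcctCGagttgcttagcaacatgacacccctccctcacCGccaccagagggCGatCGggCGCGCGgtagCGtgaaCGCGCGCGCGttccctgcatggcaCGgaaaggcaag
Slc38a4: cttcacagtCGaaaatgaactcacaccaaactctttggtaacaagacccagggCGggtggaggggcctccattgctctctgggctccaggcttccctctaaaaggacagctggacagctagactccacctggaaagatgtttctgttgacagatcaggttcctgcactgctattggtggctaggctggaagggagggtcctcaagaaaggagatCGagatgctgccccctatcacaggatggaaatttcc

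These stretches hold 14 CG dinucleotides in Mest, 20 in Mcts2, 18 in H13 and 3 in Slc38a4, against a median of 6.0 over all 32851 RefSeq promoters. The hexamer TGCCGC, which ZFP57 recognises when methylated, was searched on both strands. It occurred at 2 places in the Mest stretch, starting 242 and 67 bases before the start site, and at 1 place in Mcts2, starting 247 bases before it, with no match in H13 or Slc38a4. For a gene with several promoters, the one with most matches was shown, else the first listed. Another Mest promoter held 0 matches and 7 CG dinucleotides, and the other Slc38a4 promoters held 5 CG dinucleotides each. Of all promoters 8.68% hold the hexamer, against 12% of the 50 promoters of imprinted genes, 15.6% of the 32 of paternally expressed genes and 8.33% of the 12 of maternally expressed genes. The 5 paternal promoters with a match belong to 4 genes, since Mest is counted with 2 start sites 3 bases apart. A match is a description of the letters only.

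The imprinted genes ranged from 0 to 235 FPKM, and a few of them supplied most of their summed level. By mean over the 4 libraries, 6 genes were above 50 FPKM, 3 lay between 10 and 50 FPKM, 15 between 1 and 10 FPKM and 9 between 0 and 1 FPKM, and 2 were at 0 in every library. The 6 abundant genes were Snrpn, Mcts2, H13, Cd81, Commd1 and Slc38a4. Together they held 82.0% to 85.8% of the summed FPKM of imprinted genes in each library. Each allele class held 3 of them.

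**Figure D1:**
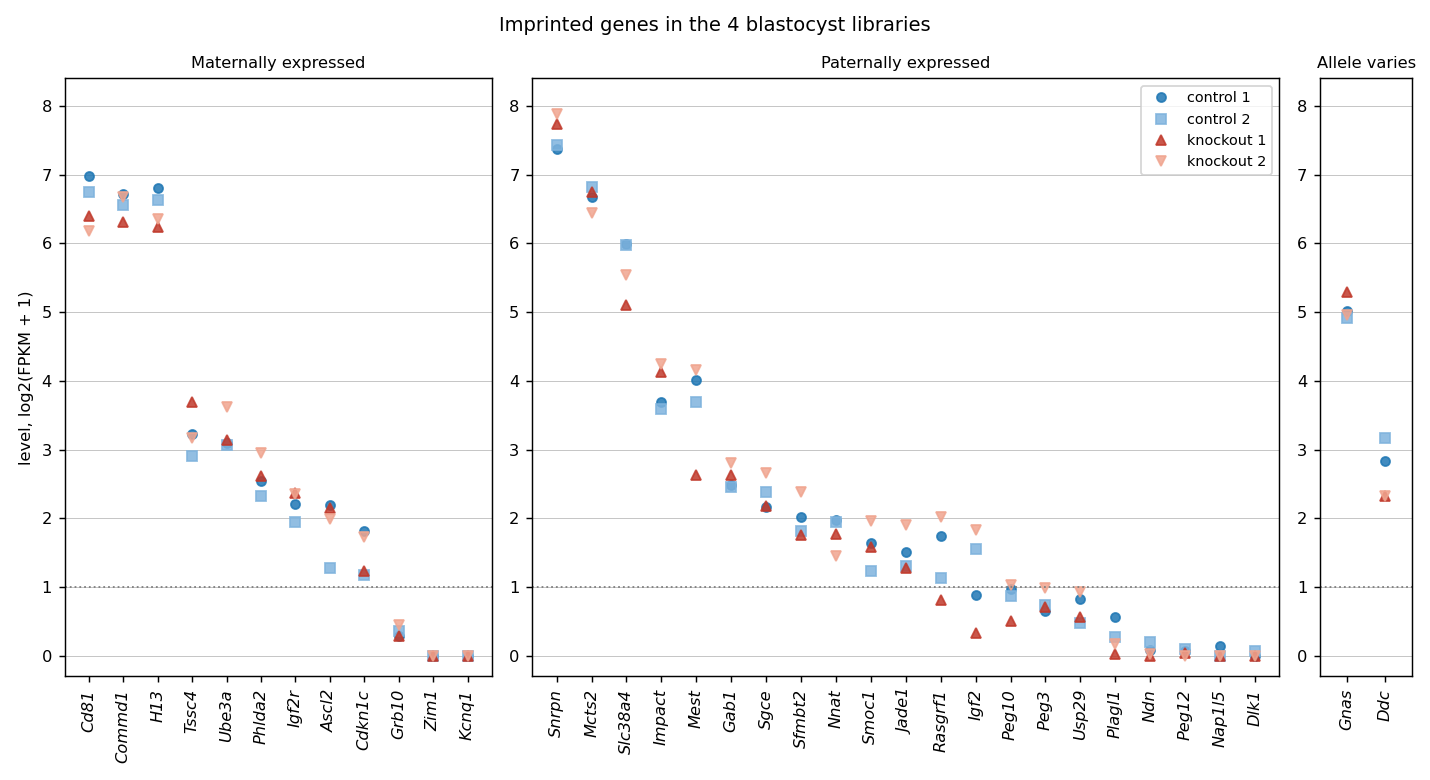
Level of each of the 35 imprinted genes in the 4 libraries as log2(FPKM + 1), one point per library, by textbook allele class. The dotted line marks 1 FPKM. Snrpn is highest, Zim1 and Kcnq1 lie at 0 in all libraries, and the points of one gene mostly lie close together compared with the distance between genes.

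The question of the design was which genes differ after editing of Ywhaz, and no imprinted gene passed the threshold. The 24 imprinted genes that averaged 1 FPKM or more were tested within a limma fit over all 9544 such genes, on log2(FPKM + 1), with Benjamini-Hochberg adjustment at 0.05. Limma called 0 of the 24, where it called 0.0733% of all genes, and the authors' deposited table lists 0 of the 33 genes above 0 at an FDR under 0.05, where it lists 0.309% of all rows above 0. At an unadjusted limma p under 0.05 there were 6, or 25.0% of the 24, against 11.1% of all genes tested. Of these, 4 were lower in knockout pools (Slc38a4, Cd81, Ddc and H13), 16.7% against 3.33% of all genes, and 2 were higher (Impact and Snrpn), 8.33% against 7.75%. An unadjusted p under 0.05 in the authors' deposited table was found for 6 of the 33, against 6.32% of rows above 0.

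The values of both groups did not overlap in 11 of the 24, or 45.8%, against 41.4% of all genes tested. Of these, 6 were higher in both knockout libraries, 25.0% against 27.4%, and 5 lower in both, 20.8% against 14.0%. A log2 fold change above 0 was found for 13 of the 24 and below 0 for 11, against 56.0% and 44.0% of all genes tested, with a median of 0.15, where that of all genes tested was 0.047. The 9 tested maternally expressed genes had a median of 0.285 and the 13 paternally expressed genes of 0.147. These medians rest on single libraries: the maternal median was −0.117 without control library 2, and the median of all 24 was −0.109 and the paternal −0.131 without knockout library 2. With 2 against 2 libraries an exact permutation test of one gene cannot go below p = 0.333.

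**Figure D2:**
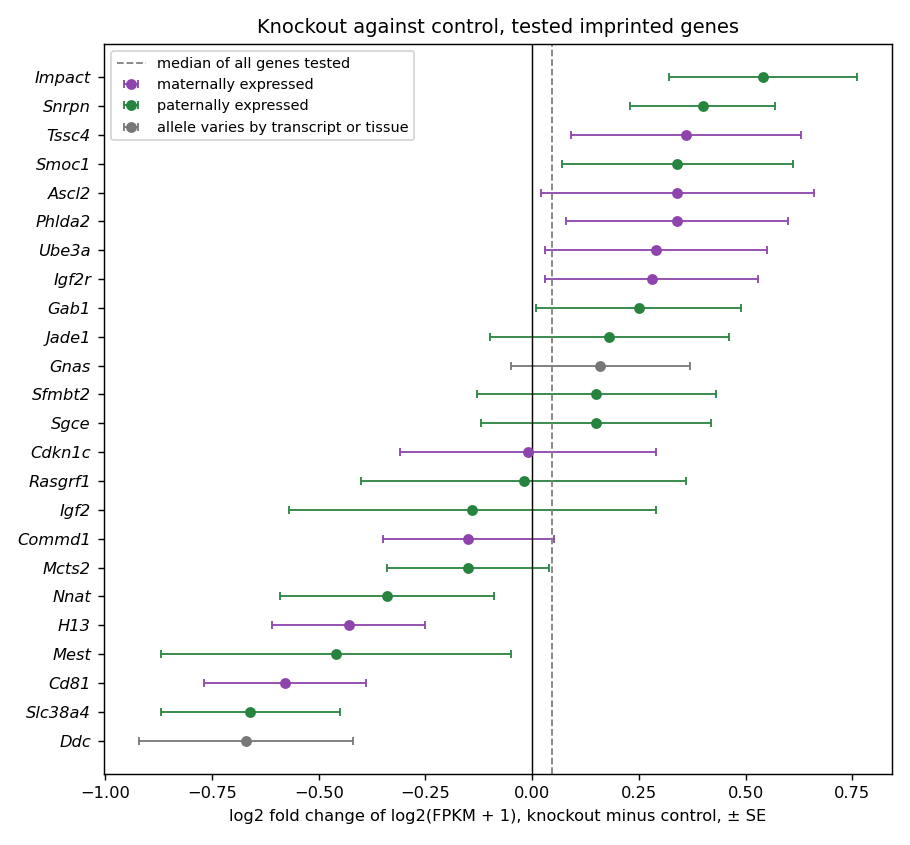
Log2 fold change of the 24 tested imprinted genes on the log2(FPKM + 1) scale, knockout minus control, with standard errors from limma. Colours mark the textbook allele class, and the dashed line is the median of all genes tested, 0.047. Values run from −0.67 for Ddc to 0.54 for Impact, and both allele classes lie on either side of 0.

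Slc38a4, an amino acid transporter of the trophoblast and placenta that is paternally expressed through maternal H3K27 trimethylation, was lower in both knockout libraries. On GRCm38 the gene spans chromosome 15, 96994820 to 97055956, minus strand. Its level was 62.4 FPKM in control library 1, 62.0 in control library 2, 33.3 in knockout library 1 and 45.6 in knockout library 2. The control pools were nearly equal, the knockout pools lay apart, and the groups did not overlap. The means were 62.2 ± 0.217 and 39.5 ± 8.69 FPKM (SD, n = 2 each), which puts knockout pools at 63.4% of control. The log2 fold change was −0.66 ± 0.21 (SE), with a limma adjusted p of 0.305. Over the alternatives the adjusted p ran from 0.0374 to 0.859, and the lowest was that without knockout library 2 (log2 fold change −0.88), where the comparison rests on knockout library 1 alone. With libraries blocked by crossed replicate numbers, an alternative added after the data were seen that keeps all 4 libraries, the limma adjusted p was 0.0404. That block was chosen from the spread of these same data, and 475 genes over all passed with it. In the authors' deposited table the FDR of Slc38a4, 0.227, was the smallest of any imprinted gene.

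The other 4 genes of the histone-marked set had small positive log2 fold changes with no call. Gab1, a docking adaptor of receptor tyrosine kinases, stood at 4.58 and 4.48 FPKM in the control pools against 5.22 and 5.99 FPKM in the knockout pools, higher in both. Sfmbt2, a Polycomb-related gene required in the placenta, measured 3.04 and 2.52 against 2.37 and 4.22 FPKM. Jade1, which encodes a subunit of histone acetyltransferase complexes, measured 1.86 and 1.47 against 1.43 and 2.75 FPKM. Smoc1, a secreted matrix protein, measured 2.12 and 1.35 against 2.01 and 2.88 FPKM, and in the last 3 genes the groups overlapped. Their log2 fold changes were 0.25 for Gab1, 0.15 for Sfmbt2, 0.18 for Jade1 and 0.34 for Smoc1, each with a standard error of 0.24 to 0.28. In all 5 genes knockout library 2 was above knockout library 1 and control library 1 above control library 2, an order of the libraries that 49.7% of all genes tested shared.

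Genes of the Kcnq1ot1 cluster on chromosome 7, which are maternally expressed, did not differ in one direction. The cluster is silenced on the paternal copy by the noncoding RNA Kcnq1ot1, in part in the trophoblast only. Cd81, a tetraspanin of the cell surface at chromosome 7, 143052739 to 143067934, plus strand (GRCm38), measured 125 and 107 FPKM in the control pools against 83.4 and 71.3 FPKM in the knockout pools. Every knockout value lay below every control value, and the knockout mean stood at 66.6% of control (116 ± 13 and 77.3 ± 8.58 FPKM, SD, n = 2 each). The log2 fold change of Cd81 was −0.58 ± 0.19 (SE) with a limma adjusted p of 0.313. Over the alternatives fixed at the start that keep all libraries, the limma adjusted p ran from 0.268 to 0.584. With the crossed replicate block, chosen from these same data, that of Cd81 was 0.0581.

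Tssc4, a neighbour of Cd81 and a factor of U5 snRNP assembly, measured 8.38 and 6.51 against 11.9 and 7.95 FPKM, so its groups overlapped. Phlda2, a restraint on placental growth, was higher in both knockout libraries, with 4.83 and 4.03 against 5.11 and 6.74 FPKM (log2 fold change 0.34 ± 0.26 SE). Ascl2, a transcription factor needed for the spongiotrophoblast, measured 3.56 and 1.42 against 3.45 and 2.98 FPKM, and control library 2 was the single low value. Cdkn1c, the cyclin-dependent kinase inhibitor p57, measured 2.51 and 1.25 against 1.34 and 2.31 FPKM, with a log2 fold change of −0.01 ± 0.30 (SE). Kcnq1, a potassium channel gene, was listed at 0 in all 4 libraries. Of the 5 detected genes of the cluster, Cd81 was the most abundant and the only one lower in both knockout libraries.

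Growth factor genes of the imprinted insulin-like growth factor axis were low in all libraries. Igf2, the paternally expressed growth factor, measured 0.845 and 1.93 FPKM in the control pools against 0.256 and 2.57 FPKM in the knockout pools. The knockout pools enclosed both control values, and the log2 fold change was −0.14 ± 0.43 (SE). Igf2r, the maternally expressed receptor that clears this factor, measured 3.60 and 2.84 against 4.14 and 4.10 FPKM, higher in both knockout libraries by 0.28 ± 0.25 (log2, SE). Grb10, an adaptor that dampens insulin and IGF signalling, stood at 0.221 to 0.367 FPKM and was not tested. Among the 14 genes listed around this axis, which are not imprinted, the signalling receptor Igf1r stood at 0.036 to 0.071 FPKM, Insr at 0.093 to 0.161 FPKM and Igf1 at 0. Of the 4 tested genes of that list 0 passed in limma, 0 had an unadjusted p under 0.05, and the 3 with the smallest p were Igf2bp2, Igf2bp1 and Cdkn1a, with log2 fold changes of 0.43, 0.21 and 0.08. Igf2bp2, an RNA-binding protein that binds Igf2 mRNA, measured 13.7 and 10.5 against 13.4 and 20.2 FPKM.

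Ddc, aromatic L-amino acid decarboxylase, shares a domain with Grb10 on chromosome 11 and has a paternally expressed transcript in the developing heart. It measured 6.14 and 7.98 FPKM in the control pools against 4.03 and 4.02 FPKM in the knockout pools. Both knockout values were nearly equal and below both control values. The means were 7.06 ± 1.3 and 4.03 ± 0.00919 FPKM (SD, n = 2 each), 57.0% of control. The log2 fold change was −0.67 ± 0.25 (SE), with a limma adjusted p of 0.377. The limma adjusted p ran from 0.27 to 0.821 over the alternatives fixed at the start that keep all libraries. With the crossed replicate block, chosen from these same data, it was 0.0684.

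At the H13 and Mcts2 locus on chromosome 2 the maternally and the paternally expressed gene were at like levels. H13 encodes signal peptide peptidase, and Mcts2 is a retrogene in its intron. Full-length H13 transcripts form on the maternal copy, where Mcts2 is methylated and silent. H13 measured 111 and 97.8 FPKM in the control pools against 74.2 and 80.6 FPKM in the knockout pools, with no overlap. Its means were 105 ± 9.57 and 77.4 ± 4.49 FPKM (SD, n = 2 each), 74.0% of control. The log2 fold change of H13 was −0.43 ± 0.18 (SE), with a limma adjusted p of 0.433. The limma adjusted p ran from 0.305 to 0.888 over the alternatives fixed at the start that keep all libraries. With the crossed replicate block, chosen from these same data, it was 0.12. Mcts2 measured 102 and 112 against 107 and 85.8 FPKM, so its groups overlapped, and its log2 fold change was −0.15 ± 0.19 (SE). Of the sum of both genes, Mcts2 made up 47.7% and 53.4% in control and 59.0% and 51.6% in knockout libraries.

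Mcts2 arose by retrotransposition of Mcts1, a translation re-initiation factor gene on chromosome X, so the coding sequences were compared, from GENCODE M21 transcripts. Both are 546 bases long and 85.2% identical, with 81 differing bases and a longest identical run of 29 bases. Their first 120 coding bases, from the ATG, are shown because these differences decide how far reads can be assigned, with capitals at the 19 bases that differ.

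Mcts2: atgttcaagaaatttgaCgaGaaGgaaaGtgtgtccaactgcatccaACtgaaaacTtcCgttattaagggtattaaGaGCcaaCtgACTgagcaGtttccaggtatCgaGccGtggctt
Mcts1: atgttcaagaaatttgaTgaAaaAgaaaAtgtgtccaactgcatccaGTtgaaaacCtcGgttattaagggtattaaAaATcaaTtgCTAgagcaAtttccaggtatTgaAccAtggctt

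Mcts1 measured 248 and 269 FPKM in the control pools against 313 and 200.2 FPKM in the knockout pools. The share of Mcts2 in the sum of both copies was 29.1% and 29.4% in control and 25.5% and 30.0% in knockout libraries. The treatment of reads that fit both copies is not stated in the labels or headers, and the division between them is uncertain.

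The Snrpn domain on chromosome 7 held the most abundant imprinted gene and some of the scarcest. Snrpn encodes SmN, a core spliceosomal protein, and spans 59982495 to 60140219 of GRCm38, minus strand. It measured 165 and 172 FPKM in the control pools against 212 and 235 FPKM in the knockout pools, higher in both. The means were 168 ± 4.45 and 223 ± 16.5 FPKM (SD, n = 2 each), 133% of control. The log2 fold change was 0.40 ± 0.17 (SE), with a limma adjusted p of 0.433. The limma adjusted p ran from 0.353 to 0.896 over the alternatives fixed at the start that keep all libraries. With the crossed replicate block, chosen from these same data, it was 0.123. Snrpb, the non-imprinted relative that encodes SmB and shares 80.5% of aligned coding bases with Snrpn, measured 484 and 455 against 512 and 455 FPKM. The share of Snrpn in the sum of the pair was 25.5% and 27.4% in control and 29.3% and 34.1% in knockout libraries. Snurf, the upstream reading frame of the same transcript unit, named after its values were seen, measured 9.99 and 6.42 against 2.70 and 8.04 FPKM. The values listed for Snurf and Snrpn differed in their pattern over libraries, with knockout library 1 lowest for Snurf and control library 1 lowest for Snrpn. Snurf, at 59995449 to 60005049 on the minus strand, lies within the span of Snrpn. The treatment of reads that fit both is not stated in the labels or headers, and the division between them is uncertain.

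Ube3a, a ubiquitin ligase gene of the same domain that is maternally expressed in neurons, measured 7.56 and 7.41 FPKM in the control pools against 7.81 and 11.2 FPKM in the knockout pools, with a log2 fold change of 0.29 ± 0.26 (SE). Ndn, which encodes the MAGE-family protein necdin, was at 0.064 and 0.143 FPKM in the control pools against 0 and 0.017 FPKM in the knockout pools. In estimated fragments this was 4.1 and 9.2 against 0 and 1.0. Peg12, a FRAT-family regulator of Wnt signalling, stood at 0.067 FPKM or less, or 3.0 estimated fragments at most. So few fragments allow no comparison of either gene between groups.

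Mest, a paternally expressed gene of the alpha/beta hydrolase fold on chromosome 6, showed the widest gap between knockout pools of the 24 tested genes on the log2(FPKM + 1) scale. It measured 15.2 and 11.9 FPKM in control libraries 1 and 2, 5.21 FPKM in knockout library 1 and 16.8 FPKM in knockout library 2. Knockout library 1 was the single low value, while knockout library 2 was above both controls, so the groups overlapped. The means were 13.5 ± 2.28 and 11 ± 8.18 FPKM (SD, n = 2 each), and the log2 fold change was −0.46 ± 0.41 (SE) with a limma adjusted p of 0.732. Without knockout library 2 it was −1.22 with a limma adjusted p of 0.0216, and without knockout library 1 it was 0.298. Copg2, a coat protein gene whose 3' end overlaps Mest on the other strand, measured 11.4 and 7.93 against 5.22 and 12 FPKM, also lowest in knockout library 1. Mest made up 57.0% and 60.1% of the pair in control and 50% and 58.3% in knockout libraries. The labels and headers do not state whether counting used strand, and reads from the overlap cannot be told apart.

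**Figure D3:**
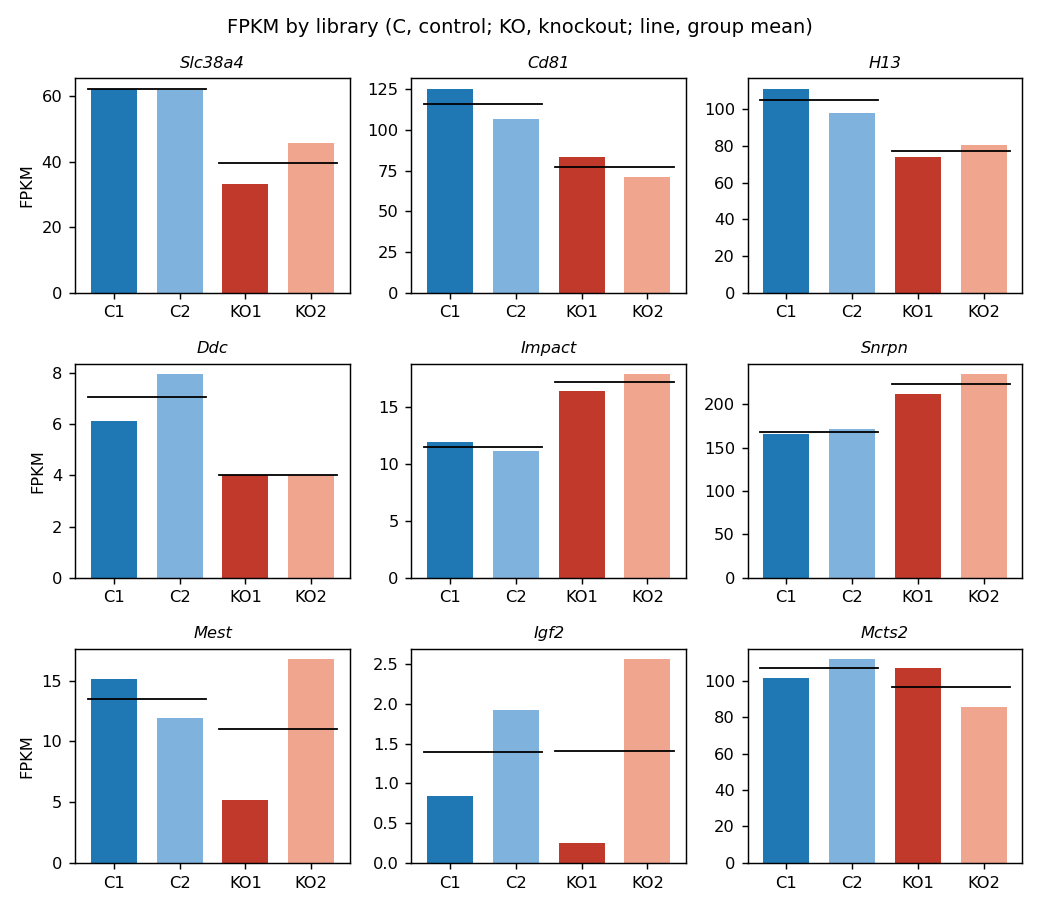
FPKM of 9 imprinted genes in control libraries 1 and 2 (C1, C2) and knockout libraries 1 and 2 (KO1, KO2); bars are single libraries, each of 5 blastocysts, and lines are group means. Slc38a4, Cd81, H13 and Ddc are lower in both knockout libraries and Impact and Snrpn higher in both, whereas Mest and Igf2 are lowest in knockout library 1 and highest in knockout library 2.

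Other paternally expressed domains were low and held no called gene. Peg10, a retrotransposon-derived gene essential for the placenta, measured 0.952 and 0.821 against 0.417 and 1.05 FPKM and was below the limit for testing. Sgce, the epsilon-sarcoglycan gene that shares its promoter region, measured 3.49 and 4.19 against 3.55 and 5.28 FPKM, with a log2 fold change of 0.15. In the Peg3 domain on chromosome 7, the zinc finger gene Peg3 stood at 0.563 and 0.668 against 0.643 and 0.980 FPKM, and Usp29, a deubiquitinase-family gene read from the same promoter region, at 0.778 and 0.386 against 0.484 and 0.900 FPKM. Zim1, a maternally expressed zinc finger gene of the domain, was listed at 0 in all libraries. In Peg10, Sgce, Peg3 and Usp29 alike the highest value was that of knockout library 2.

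Impact, a paternally expressed inhibitor of the amino acid sensor kinase GCN2 on chromosome 18, was higher in both knockout libraries. It measured 11.9 and 11.1 FPKM in the control pools against 16.5 and 17.9 FPKM in the knockout pools, and within each group the pools were close. The means were 11.5 ± 0.592 and 17.2 ± 1.04 FPKM (SD, n = 2 each), 149% of control. The log2 fold change was 0.54 ± 0.22 (SE), with a limma adjusted p of 0.411. The limma adjusted p ran from 0.355 to 0.893 over the alternatives fixed at the start that keep all libraries. With the crossed replicate block, chosen from these same data, it was 0.0974.

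The remaining genes gave differences within or near the spread of the pools. Nnat, which encodes the small membrane proteolipid neuronatin, was lower in both knockout libraries, with 2.92 and 2.87 against 2.43 and 1.74 FPKM (log2 fold change −0.34 ± 0.25 SE). Gnas, the stimulatory G protein alpha subunit locus, measured 31.4 and 29.2 against 38.3 and 30.1 FPKM. Commd1, a copper metabolism gene that hosts Zrsr1, measured 105 and 92.9 against 78.1 and 101 FPKM. Rasgrf1, a guanine nucleotide exchange factor for Ras, measured 2.36 and 1.19 against 0.754 and 3.07 FPKM, and as in Mest the knockout pools enclosed the control pools. Plagl1, a zinc finger regulator of growth, was too low to be tested in limma, with 0.480 and 0.212 FPKM in the control pools against 0.015 and 0.130 FPKM in the knockout pools, lower in both; in the authors' deposited table its p was 0.024 and its FDR 0.618. Nap1l5, an intronless gene of the nucleosome assembly protein family, and Dlk1, a Notch-related membrane protein gene, were each above 0 in a single control library, at 0.105 and 0.045 FPKM.

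Pools of the same group differed in the same direction for many of these genes, as they did across the transcriptome. Knockout library 2 was above knockout library 1 in 16 of the 24 tested genes, or 66.7%, against 66.1% of all genes tested. Control library 2 was above control library 1 in 5 of the 24, or 20.8%, against 32.1%. The median difference of knockout library 2 minus 1 was 0.255 on the log2 scale over the 24 genes and 0.156 over all genes, and of control library 2 minus 1 it was −0.177 and −0.133. Among paternally expressed genes knockout library 2 was the higher in 11 of 13, and among maternally expressed genes in 5 of 9. Control library 2 was the higher in 4 of the 13 paternally and 0 of the 9 maternally expressed genes. The widest gaps between knockout pools on the log2(FPKM + 1) scale were 1.52 for Mest, 1.51 for Igf2 and 1.21 for Rasgrf1, all paternally expressed. The added 1 FPKM compresses low genes, and by the plain ratio of knockout library 2 to 1 Igf2 came first with 10-fold, followed by 4.07-fold for Rasgrf1 and 3.22-fold for Mest. The log2 gaps exceed any difference between the group means in the 24 genes, which reached at most 0.67. Trophectoderm markers had the same order in their sum, with 225 and 349 FPKM in knockout libraries 1 and 2, and in 6 of the 7 markers. Elf5 went the other way, with 0.793 and 0.649 FPKM. Primitive endoderm markers also had this order, with sums of 431 and 642 FPKM, and in all 5 tested. Epiblast markers summed to 292 and 315 FPKM, with knockout library 2 the higher in 3 of 5. The part of these markers in the differences between pools was not tested.

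**Figure D4:**
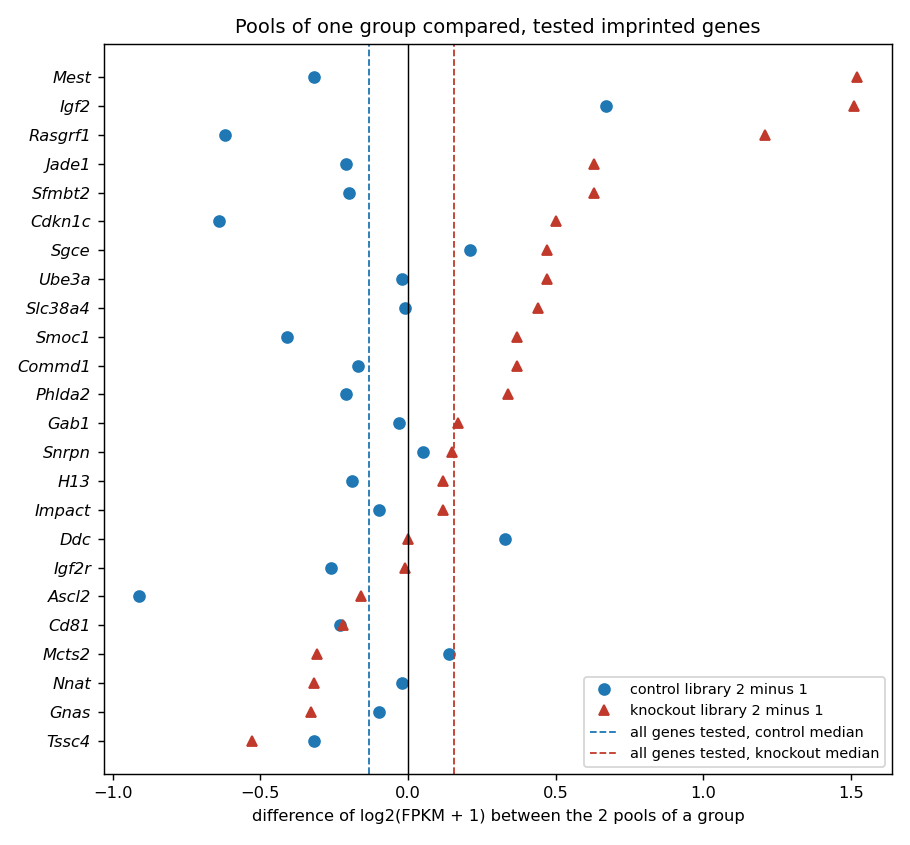
Difference of log2(FPKM + 1) between the 2 pools of a group, library 2 minus library 1, for the 24 tested imprinted genes; circles are control pools, triangles knockout pools, and dashed lines the medians of all genes tested, −0.133 and 0.156. Mest, Igf2 and Rasgrf1 show the widest gaps between knockout pools.

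Genes that write, read or protect imprints showed no call either. Of 28 listed genes 26 were tested, 20 with a log2 fold change above 0 (76.9%, against 56.0% of all genes tested) and 6 below, and the median was 0.206, where that of all genes tested was 0.047. Limma called 0 of the 26, and 3 had an unadjusted p under 0.05, or 11.5% against 11.1% of all genes. These were Hells, a chromatin remodeller required for DNA methylation, with 4.81 and 3.60 against 8.01 and 7.82 FPKM (log2 fold change 0.79), Arid4b, a chromatin factor needed at the Snrpn imprint, with 0.997 and 0.940 against 2.17 and 2.07 FPKM (0.66), and Dnmt3a, a de novo methyltransferase, with 2.29 and 1.11 against 3.58 and 2.69 FPKM (0.64). Zfp57 itself measured 12.3 and 6.34 FPKM in the control pools against 7.36 and 12.8 FPKM in the knockout pools, Trim28 43.6 and 30.5 against 30.1 and 43.4 FPKM, and Dnmt1 1.47 and 1.70 against 1.16 and 1.74 FPKM, with overlap in each. In Zfp57 and Trim28 the spread between pools of one group was wider than the difference between the means.

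Most other imprinted genes were below the limit for testing. Of 40 listed genes 38 were in the table, 36 were above 0 in some library and 9 reached a mean of 1 FPKM, 4 with a log2 fold change above 0 and 5 below, with a median of −0.006. Limma called 0 of the 9, and 1 had an unadjusted p under 0.05, or 11.1%, the same share as the 11.1% of all genes tested. This was Nap1l4, a nucleosome assembly gene at the edge of the Kcnq1ot1 cluster, with 16.4 and 18.2 against 27 and 32.7 FPKM (log2 fold change 0.75, limma adjusted p = 0.273). Next by p were Pon2, a paraoxonase gene near Peg10, with 10.6 and 7.84 against 7.06 and 7.23 FPKM, and Blcap, the host gene of Nnat, with 31.8 and 26.1 against 22.3 and 28.8 FPKM.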

How the data were processed

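The deposited table gives FPKM per gene and library, calculated by the authors and rounded to 3 decimals, with group means in FPKM, a log2 fold change of the means, and the authors' p-value and FDR, per the file headers. Tools named in the submitters' processing notes, with no role given, are HISAT2 2.1.0 and Bowtie2 2.2.8, StringTie 1.3.1 and RSEM, fastp 0.18.0 and DESeq2, and the build is GRCm39. The labels give all 4 libraries the same batch.

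Members were taken by exact symbol. Genes that averaged 1 FPKM or more were fitted with limma 3.58.1 in R 4.3.3, with an intensity trend, on log2(FPKM + 1) and the group alone, with 2 residual degrees of freedom. This scale understates changes of low genes. Knockout minus control is the sign throughout. Of 22013 rows, 4858 were at 0 in every library. No count of reads is in the table. Depth was estimated from genes of a single transcript over 1500 nt, assuming fragments of 200 nt. A whole number of fragments, to within 10%, was matched by 75.9% to 79.1% of low values. The number of pools limits the precision. Gene positions are from GENCODE M21 on GRCm38 by gene identifier, promoters from RefSeq on GRCm38.p6, and coding sequences were aligned with Biopython 1.88. The procedure was tested on simulated data.

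The members and lists were chosen with earlier results of these data known. All matched members are named, and of the lists on imprint maintenance, other imprinted genes and the IGF axis the 3 tested genes with the smallest p, with partners needed to describe a member. Alternatives covered the pseudocount, the minimum FPKM, the scaling, the trend, the replicate number as a block and leaving out each library. A block of crossed replicate numbers was added after the data were seen.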

Additional observations from a re-analysis of the deposited data

How the results depend on the processing

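Of 533 recomputations of 39 named genes under 14 alternatives, 495 kept the direction and the side of the threshold. Of the 39 genes, 21 kept their direction throughout, among them Slc38a4, Cd81, Ddc, H13, Impact and Snrpn. The minimum FPKM, the trend and both replicate blocks cannot change a log2 fold change, so direction was fixed under them. In Slc38a4 and the others just named the groups did not overlap, so leaving out a library could not reverse them. The precision is that of 2 pools per group, and where a library is left out the lone pool of its group is assumed to vary like the other group; the cause of the changes below was not tested.

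The count of 7 genes called by limma over all genes became 0 with no minimum FPKM or with quantile normalization, 13 with TPM scaling, 4 with median-of-ratios scaling and 3 without the trend, and 15 to 205 when a library was left out. With the replicate number as a block it was 38, with Ywhaz called (log2 fold change −1.21, limma adjusted p = 0.00246), and no imprinted gene was called. In the main fit, on the group alone, Ywhaz was not called (limma adjusted p = 0.305). In the authors' deposited table the p of Ywhaz was 0.122. Deviations of same-numbered libraries had a correlation of −0.244 over 9544 genes. Each group gives 1 difference per gene, so this does not show whether the numbers pair the samples. The crossed pairing was chosen from that correlation after the data were seen, so its calls are not independent support. With it 475 genes over all were called, 1 of them an imprinted member (Slc38a4, limma adjusted p = 0.0404), 1 of imprint maintenance and 1 of other imprinted genes.

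No imprinted member was called under the alternatives fixed at the start that keep all libraries. Without knockout library 2 the comparison rests on knockout library 1 alone. There the log2 fold change was −0.88 for Slc38a4 and −1.22 for Mest. When a library was left out, the member median ranged from −0.109 to 0.289, the maternal median from −0.117 to 0.306 and the paternal median from −0.131 to 0.469. At a minimum mean of 5 FPKM the maternal median was 0.072. With no minimum the member median was −0.015 and the paternal −0.032.

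Some differences changed direction, among them those of Snurf (−0.642 with all libraries) and Mest (−0.46). With TPM scaling Cdkn1c was 0.008 and Rasgrf1 0.002, and with median-of-ratios scaling Cdkn1a was −0.007 and Snrpb −0.049. When a library was left out, log2 fold changes ranged from −0.888 to 0.617 for Igf2, from −0.087 to 0.38 for Sgce, from −0.335 to 0.306 for Cdkn1c, from −0.117 to 0.796 for Ascl2 and from −1.219 to 0.298 for Mest. They ranged from −0.332 to 0.041 for Commd1, from −0.162 to 0.469 for Sfmbt2, from −0.131 to 0.498 for Jade1, from −0.31 to 0.002 for Mcts2 and from −0.005 to 0.33 for Gnas. Likewise they ran from −0.628 to 0.585 for Rasgrf1, from −0.197 to 0.607 for Igf2bp1, from −0.098 to 0.264 for Cdkn1a, from −1.286 to 0.002 for Snurf and from −0.364 to 0.278 for Mcts1. For Snrpb they ran from −0.044 to 0.125, for Copg2 from −0.76 to 0.304 and for Zfp57 from −0.31 to 0.547.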
